A study of Homo sapiens with 6 samples.

Results

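The APOBEC3 cytidine deaminases are 7 genes, APOBEC3A, APOBEC3B, APOBEC3C, APOBEC3D, APOBEC3F, APOBEC3G and APOBEC3H, that lie side by side on chromosome 22 (hg38, plus strand, 38952741 to 39104067, 151 kb). They were taken by gene symbol from the table of 31835 genes, and each symbol had 1 entry. The family was selected on its FPKM values in ADAMTS1 and vector libraries, which were already known, so every difference between these groups given for its members is a description. RNA-seq had been run on MDA-MB-231, an established human triple-negative breast cancer line that looks mesenchymal. The data comprise 3 libraries from cells that overexpressed ADAMTS1, a secreted metalloprotease that cleaves matrix proteoglycans, and 3 from cells with the vector. All 6 share the line, and no other treatment, time or clone is given. The sources used here do not give the form of ADAMTS1 or the promoter that drove it. They also do not say that separate cultures stand behind the libraries of a group, so p-values and errors measure only the spread between these libraries, which may be technical.

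APOBEC3 enzymes remove the amino group of cytosine in single-stranded DNA and leave uracil. They restrict retroviruses and endogenous retroelements, and HIV counters several of them with its Vif protein, which directs them to a ubiquitin ligase. In breast cancer APOBEC3A and APOBEC3B are known as sources of clustered and scattered C-to-T and C-to-G changes in tumour genomes. Each catalytic domain holds 1 zinc ion through a histidine and a pair of cysteines, with a glutamate that takes part in the reaction.

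The coding stretch from that histidine to the last of those cysteines was read from the principal GENCODE 29 transcripts. APOBEC3A, APOBEC3C and APOBEC3H held 1 such zinc site, in 199, 190 and 183 codons. APOBEC3B, APOBEC3D, APOBEC3F and APOBEC3G held 2, in 382, 386, 373 and 384 codons. The sites of APOBEC3B and APOBEC3C are shown because these members carried nearly all of the signal. Site 2 of APOBEC3F is shown as a close relative of the APOBEC3C site, and site 2 of APOBEC3G for the member with the largest relative difference among those listed above 0 in every library. They are printed 5′ to 3′ on the plus strand of GRCh38, and capitals mark the codons of the histidine, the glutamate and the cysteines.
APOBEC3B site 1, chr22:38985833-38985937, exon 3: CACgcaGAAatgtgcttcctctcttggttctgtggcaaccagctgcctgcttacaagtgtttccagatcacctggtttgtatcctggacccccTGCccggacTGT
APOBEC3B site 2, chr22:38991365-38991475, exon 6: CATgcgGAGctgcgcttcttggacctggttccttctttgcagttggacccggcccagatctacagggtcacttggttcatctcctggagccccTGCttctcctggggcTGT
APOBEC3C site 1, chr22:39017787-39017891, exon 3: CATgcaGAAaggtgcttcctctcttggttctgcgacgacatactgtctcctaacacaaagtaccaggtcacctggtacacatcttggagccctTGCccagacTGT
APOBEC3F site 2, chr22:39052095-39052199, exon 6: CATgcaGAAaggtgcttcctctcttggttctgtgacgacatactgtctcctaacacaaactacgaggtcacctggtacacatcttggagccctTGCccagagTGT
APOBEC3G site 2, chr22:39086312-39086416, exon 6: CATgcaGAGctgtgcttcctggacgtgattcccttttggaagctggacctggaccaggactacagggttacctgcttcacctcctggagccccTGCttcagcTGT

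Several of these stretches had no difference at all from the stretch of another gene. Site 1 of APOBEC3B was identical over its 105 bases to site 1 of APOBEC3F (chr22:39044962-39045066). Site 2 of APOBEC3B was identical over its 111 bases to the only site of APOBEC3A (chr22:38961420-38961530). Site 2 of APOBEC3F was identical over 105 bases to site 2 of APOBEC3D (chr22:39031715-39031819), and the site of APOBEC3C differed from both at 4 of 105 bases. Site 2 of APOBEC3G shared 84 of 105 aligned bases with the site of APOBEC3A.

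Over whole coding sequences, APOBEC3A matched APOBEC3B at 556 of 597 aligned bases (93.1%), and APOBEC3C matched APOBEC3D at 90.3% and APOBEC3F at 90.1%. Of all 100-base stretches of the APOBEC3B transcript, 36.5% also stood in a transcript of another member, mostly of APOBEC3A. Part of this comes from the annotation, in which APOBEC3A spans 38952741 to 38992778 and runs across APOBEC3B. The share was 12.9% for APOBEC3A, 13.5% for APOBEC3F, 11.3% for APOBEC3G and 9.18% for APOBEC3D, and it was 0% for APOBEC3C and APOBEC3H. How long the reads were, and how those that fit several places were treated, is not given in the sources used here. Between APOBEC3B and APOBEC3A, between APOBEC3B and APOBEC3F, and among APOBEC3D, APOBEC3F and APOBEC3G, the split of fragments is therefore uncertain, while APOBEC3C and APOBEC3H are the members least exposed to it.

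**Figure D1:**
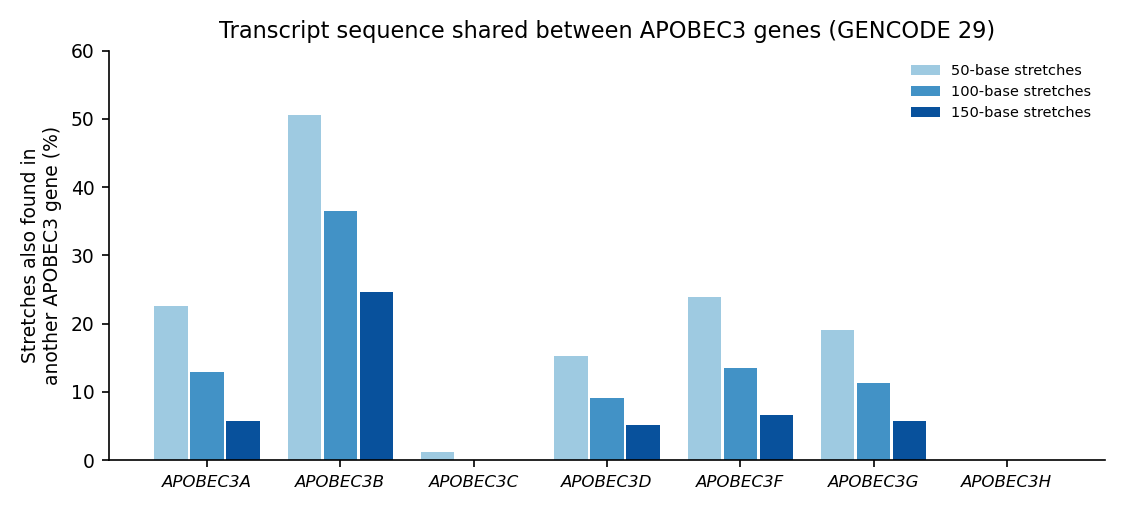
Share of all stretches of 50, 100 or 150 bases in the principal transcript of each APOBEC3 gene that also occur in a GENCODE 29 transcript of another APOBEC3 gene (vertical axis, percent). APOBEC3B has the tallest bars, with 36.5% of its 100-base stretches shared, and APOBEC3H has none at any of the 3 lengths.

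The ADAMTS1 gene had 499, 462 and 501 FPKM (a level of fragments corrected for transcript length and library size) in ADAMTS1 libraries, against 6.56, 6.72 and 6.99 FPKM in vector libraries, which matches the labels. Relative depth, with the first vector library set to 1, was 1.41, 1.04 and 1.43 in ADAMTS1 libraries and 1, 1.17 and 1.26 in vector libraries. All 4 mesenchymal line markers were expressed, with sums of 804 to 827 FPKM in ADAMTS1 libraries and 790 to 826 FPKM in vector libraries. AXL, a receptor kinase among them named after its values were seen, was lower without overlap, as were 10.6% of all tested genes. It had 277 to 283 FPKM in ADAMTS1 libraries and 283.2 to 309 FPKM in vector libraries (log2 difference -0.10, limma adjusted p 0.342). VIM, CD44 and CAV1 went the other way, with log2 differences of 0.07, 0.06 and 0.04, and each overlapped between groups. Leukocytes are the usual site of APOBEC3G and APOBEC3H expression, and their markers were near 0: the 2 matched T cell markers summed to 0.318 to 1.03 FPKM in ADAMTS1 libraries and 0.496 to 0.965 FPKM in vector libraries. The 2 matched B cell markers summed to at most 0.182 FPKM in ADAMTS1 libraries and 0.167 FPKM in vector libraries, and the 5 myeloid markers to at most 0.759 FPKM in ADAMTS1 libraries and 0.646 FPKM in vector libraries. The 6 luminal breast markers summed to 10.2 to 10.8 FPKM in ADAMTS1 libraries and 9.69 to 10.2 FPKM in vector libraries. The sums were higher without overlap (lowest ADAMTS1 sum 10.23 FPKM, highest vector sum 10.19 FPKM), but each marker alone overlapped between groups. Mostly ERBB2 and EPCAM made up these sums, with means of 5.69 and 3.01 FPKM over the 6 libraries. ESR1, PGR and GATA3 averaged 0.0262, 0.125 and 0.172 FPKM. The 4 fibroblast markers summed to 1.02 to 1.33 FPKM in ADAMTS1 libraries and 1.29 to 1.36 FPKM in vector libraries. The part of these markers in the differences given here was not tested.

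APOBEC3B and APOBEC3C made up nearly the whole family signal in every library. Summed over the 7 genes, the level was 31.5, 32.1 and 30.6 FPKM in ADAMTS1 libraries, against 37.5, 37.6 and 36.9 FPKM in vector libraries. The groups did not overlap, and the means were 31.4 ± 0.755 FPKM in ADAMTS1 libraries and 37.3 ± 0.408 FPKM in vector libraries (SD, n = 3 each), a ratio of 0.842. APOBEC3B and APOBEC3C together supplied 96.8% to 97.1% of the sum in ADAMTS1 libraries and 96.7% to 97.7% in vector libraries. The sum of the other 5 members was 0.950 ± 0.0506 FPKM in ADAMTS1 libraries and 1.04 ± 0.194 FPKM in vector libraries, and its ranges overlapped.

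APOBEC3C, a member with a single zinc site and weak deaminase activity, had the highest FPKM. Its mean over the 6 libraries was 18.1 FPKM, rank 2568 of the 31835 genes by mean level. APOBEC3B, the member found mainly in the nucleus, followed with 15.2 FPKM and rank 3065. APOBEC3F (0.566 FPKM), APOBEC3G (0.204 FPKM), APOBEC3D (0.177 FPKM), APOBEC3H (0.0426 FPKM) and APOBEC3A (0.00629 FPKM) came after them.

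Neighbours in this order were compared within libraries by an exact two-sided sign-flip permutation test of the log2(FPKM + 1) levels. With 6 libraries the smallest p it can give is 0.03125. Because 4 of the 6 pairs reached it, Benjamini-Hochberg adjustment over the 6 pairs gave 0.046875 for each. These 4 calls depend on each other, since with fewer pairs at that p none would have passed 0.05. The order itself was taken from mean levels in the same libraries. APOBEC3C lay above APOBEC3B in 6 of 6 libraries (exact permutation p = 0.03125, adjusted 0.046875). The 2 ranges overlapped because the ADAMTS1 levels of APOBEC3C reached below the vector levels of APOBEC3B. The mean FPKM of APOBEC3C was only 1.19 times that of APOBEC3B. The transcript lengths behind these FPKM are not given, and 36.5% of 100-base stretches are shared for APOBEC3B against 0% for APOBEC3C. Whether their order holds for transcript numbers was not tested. The step from APOBEC3B down to APOBEC3F was 26.9-fold, with no overlap and the same exact permutation p of 0.03125. APOBEC3F over APOBEC3G and APOBEC3D over APOBEC3H also reached it, each in 6 of 6 libraries. With both groups pooled, APOBEC3G and APOBEC3D did not differ beyond their spread (higher in 4 of 6 libraries, exact permutation p = 0.625). Vector libraries alone had 0.198 to 0.324 FPKM of APOBEC3G and 0.138 to 0.190 FPKM of APOBEC3D, without overlap. ADAMTS1 libraries had 0.101 to 0.191 FPKM and 0.159 to 0.238 FPKM, with overlap. The pooled test does not address either group alone. APOBEC3H and APOBEC3A also did not differ beyond their spread (3 of 6 libraries, exact permutation p = 0.25, adjusted 0.3).

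APOBEC3B (ENSG00000179750, 38982347 to 38992804) had 14.0, 13.8 and 13.5 FPKM in ADAMTS1 libraries, against 17.0, 16.6 and 16.6 FPKM in vector libraries. All 3 ADAMTS1 libraries lay below all 3 vector libraries, with a gap of 2.60 FPKM between the groups. The means were 13.8 ± 0.249 FPKM in ADAMTS1 libraries and 16.7 ± 0.223 FPKM in vector libraries (SD, n = 3 each), a ratio of 0.822. On the log2(FPKM + 1) scale the difference was -0.26 with a standard error of 0.030 and a 95% interval of -0.34 to -0.19. Fewer cells that express a gene and less RNA per cell cannot be told apart in such bulk libraries.

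APOBEC3C (ENSG00000244509, 39014257 to 39020352) had 16.6, 17.4 and 16.2 FPKM in ADAMTS1 libraries, against 19.7, 19.7 and 19.3 FPKM in vector libraries. The ADAMTS1 libraries were again the lower ones without overlap, and the gap was 1.88 FPKM. The means were 16.7 ± 0.601 FPKM in ADAMTS1 libraries and 19.6 ± 0.261 FPKM in vector libraries (SD, n = 3 each), a ratio of 0.854. The log2(FPKM + 1) difference was -0.22 with a standard error of 0.035 and a 95% interval of -0.30 to -0.13.

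APOBEC3B and APOBEC3C were lower to a similar extent. The level of APOBEC3B divided by that of APOBEC3C was 0.824 ± 0.0262 in ADAMTS1 libraries and 0.855 ± 0.0110 in vector libraries, with overlapping ranges. APOBEC3B supplied 43.8% ± 0.708 of the family sum in ADAMTS1 libraries and 44.8% ± 0.535 in vector libraries. APOBEC3C supplied 53.2% ± 0.846 in ADAMTS1 libraries and 52.4% ± 0.126 in vector libraries.

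These 2 were also the only members that passed the filter of a mean of 1 FPKM over all libraries, and both passed it in either group. In the limma fit across the 11897 genes that passed, 0 of the 2 were called at an adjusted p under 0.05, where 8 genes (0.0672%) were called in all, 7 (0.0588%) of them higher and 1 (0.00841%) lower; leaving out any 1 library gave 1 to 5 calls. The overexpressed ADAMTS1 gene itself was 1 of the 7 called higher (limma adjusted p 8.8e-10). The limma adjusted p was 0.0595 for APOBEC3B, which ranked 9 by p, and 0.108 for APOBEC3C. With the filter raised to a mean of 5 FPKM, limma called APOBEC3B lower (adjusted p = 0.0241) among 31 of 6957 genes (0.446%), 14 of them lower (0.201%), and APOBEC3C missed the threshold (adjusted p = 0.0553). Both members were lower without overlap, as were 10.6% of the tested genes, and 18.8% did not overlap in either direction. A log2 difference as low as that of APOBEC3B was found for 286 of the tested genes and one as low as that of APOBEC3C for 435.

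The remaining 5 members were all below 1 FPKM. APOBEC3G (ENSG00000239713, 39077067 to 39087743), the member best known for packaging into HIV particles, had 0.191, 0.101 and 0.114 FPKM in ADAMTS1 libraries, against 0.198, 0.298 and 0.324 FPKM in vector libraries. The ADAMTS1 libraries were lower without overlap, but the highest of them lay only 0.00789 FPKM under the lowest vector library. Its means were 0.135 ± 0.0484 FPKM in ADAMTS1 libraries and 0.274 ± 0.0665 FPKM in vector libraries, a ratio of 0.494. It missed the filter; fitted with no filter, its log2(FPKM + 1) difference was -0.17 with a standard error of 0.061 and a 95% interval of -0.32 to -0.015.

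APOBEC3F (ENSG00000128394, 39040604 to 39055972), another restriction factor with a pair of zinc sites, had 0.478, 0.588 and 0.539 FPKM in ADAMTS1 libraries, against 0.517, 0.718 and 0.554 FPKM in vector libraries. APOBEC3D (ENSG00000243811, 39021113 to 39033277) had 0.159, 0.238 and 0.191 FPKM in ADAMTS1 libraries, against 0.149, 0.190 and 0.138 FPKM in vector libraries. The groups overlapped for both genes.

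APOBEC3H (ENSG00000100298, 39097224 to 39104067), known for haplotypes that differ in protein stability, was listed at 0.142, 0 and 0.0702 FPKM in ADAMTS1 libraries, against 0, 0.0427 and 0 FPKM in vector libraries. APOBEC3A (ENSG00000128383), a strong deaminase of myeloid cells, was listed above 0 in 1 library, the first ADAMTS1 library, at 0.0378 FPKM. APOBEC3B-AS1, an antisense gene on the minus strand that overlaps the end of APOBEC3B (38991559 to 38998209), was listed at 0 in all ADAMTS1 libraries, against 0.0908, 0 and 0 FPKM in vector libraries. A strand setting is not given in the sources used here, so the split of reads between APOBEC3B and its antisense gene in that overlap is uncertain.

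**Figure D2:**
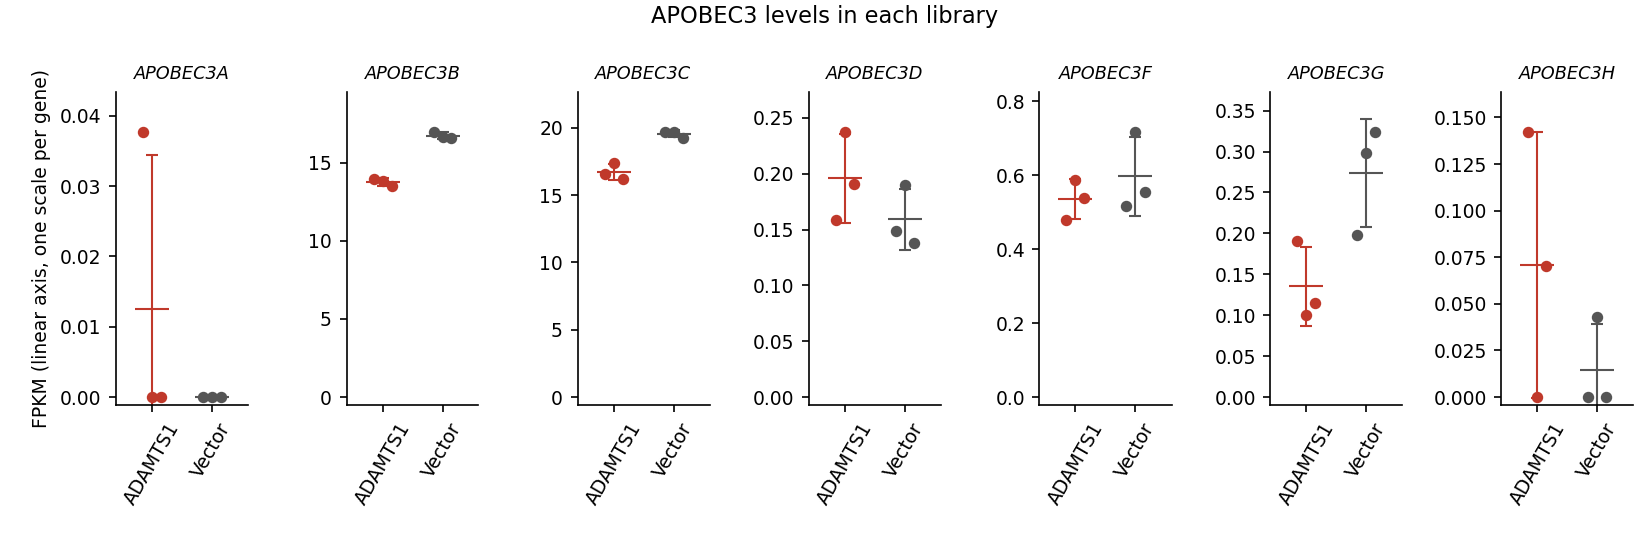
FPKM of each APOBEC3 gene (vertical axis, linear from 0, with a separate scale for each gene) in the 3 ADAMTS1 and the 3 vector libraries. Points are libraries and bars are the mean ± SD; APOBEC3B, APOBEC3C and APOBEC3G have ADAMTS1 points below all vector points, and the other 4 genes overlap.

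FPKM keeps a trace of depth, since the values of a gene in different libraries are whole multiples of what 1 fragment is worth there. Of 2000 genes tried, each above 0 in all 6 libraries, 1886 (94.3%) gave whole numbers within 0.01. So did APOBEC3B, APOBEC3C, APOBEC3D, APOBEC3F and APOBEC3G. The numbers of APOBEC3H rest on only 3 libraries above 0. APOBEC3A was above 0 in 1 library, where the procedure returns 1 for any value. All numbers given are the smallest whole ones that fit. True fragment counts could be a multiple of them, in which case counting errors would be smaller. The intervals here are exact and cover counting error only.

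APOBEC3G came to 23, 9 and 14 steps in ADAMTS1 libraries, against 17, 30 and 35 in vector libraries. Per unit of relative depth this was 11.9 steps (95% interval 8.68 to 15.8) in ADAMTS1 libraries and 23.9 (19.0 to 29.6) in vector libraries, a ratio of 0.496 with a 95% interval of 0.338 to 0.721. The second ADAMTS1 library had the fewest steps and the first vector library the fewest of its group, and single libraries carried counting errors of 16.9% to 33.3%.

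APOBEC3F summed to 171 steps in ADAMTS1 libraries and to 171 in vector libraries, which were the shallower group, and its depth-corrected ratio was 0.885 (0.711 to 1.10). APOBEC3D summed to 30 steps in ADAMTS1 libraries and 22 in vector libraries, a ratio of 1.21 (0.673 to 2.19). The intervals of both include no difference, and differences within them were not detectable at this depth.

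APOBEC3H had 4, 0 and 2 steps in ADAMTS1 libraries, against 0, 1 and 0 in vector libraries, a ratio of 5.31 with an interval of 0.644 to 244. APOBEC3A had 1, 0 and 0 steps in ADAMTS1 libraries, against 0, 0 and 0 in vector libraries, and no ratio is given. That 1 step follows from the procedure for any gene above 0 in 1 library.

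APOBEC3B came to 595, 435 and 582 steps in ADAMTS1 libraries, against 513, 589 and 631 in vector libraries, and the ratio per depth was 0.823 (0.768 to 0.881). APOBEC3C came to 983, 764 and 975 steps in ADAMTS1 libraries, against 830, 975 and 1022 in vector libraries, with a ratio of 0.852 (0.808 to 0.898). The FPKM of APOBEC3B varied by 1.81% (SD) among ADAMTS1 libraries and 1.33% among vector libraries, less than the counting error of 3.98% to 4.79% that its step numbers give for single libraries. The standard error of its log2 ratio from counting alone was 0.050, wider than the 0.030 of the limma fit.

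**Figure D3:**
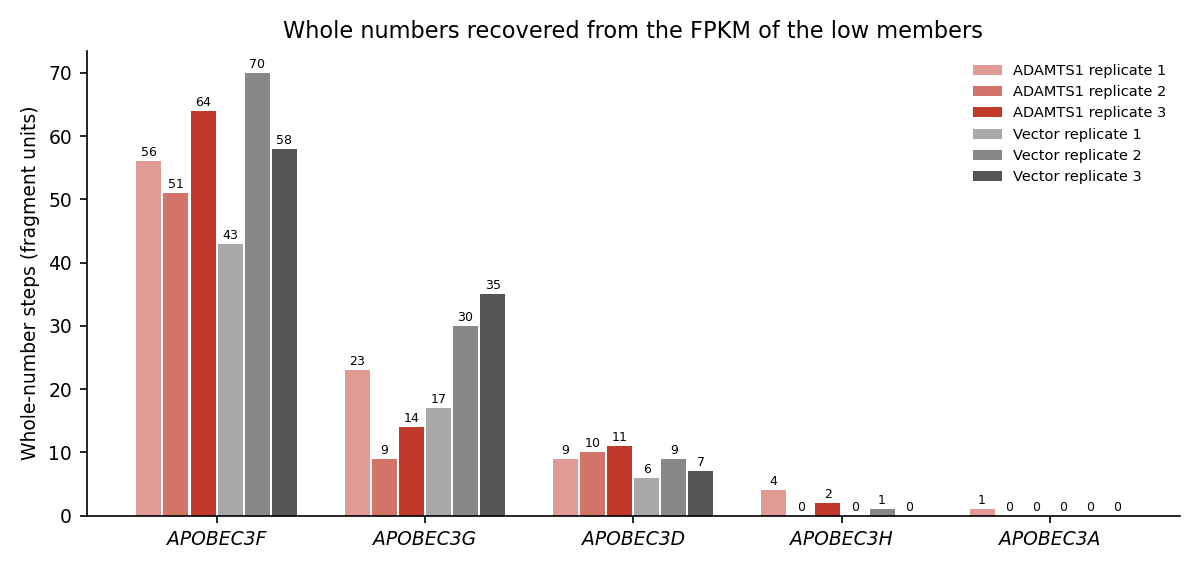
Whole-number steps recovered from the FPKM values of the 5 low APOBEC3 members (vertical axis, linear, not corrected for depth), 1 bar per library, ADAMTS1 libraries in red and vector libraries in grey. APOBEC3G runs from 9 to 23 in ADAMTS1 libraries and from 17 to 35 in vector libraries, and APOBEC3H and APOBEC3A have at most 4.

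Genes that act with the family, or control it, were followed in lists of 109 genes, of which 105 were matched and 93 tested. Limma called 0 of the 93 (lowest adjusted p 0.244), against 0.0672% of all tested genes, and 7 had an unadjusted p under 0.05, against 12.2% of all tested genes. Their median log2 difference was -0.015, beside -0.0078 over all tested genes, and 18 of the 93 (19.4%, against 18.8% of all tested genes) did not overlap between groups, 9 higher and 9 lower.

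Among the 8 tested genes for other deaminases the median difference was -0.013 and none separated the groups. DCTD, which deaminates deoxycytidylate, averaged 34.9 ± 0.384 FPKM in ADAMTS1 libraries and 35.2 ± 0.768 FPKM in vector libraries, and ADAR, which edits adenosine in RNA, averaged 28.6 ± 0.980 FPKM in ADAMTS1 libraries and 29.3 ± 0.479 FPKM in vector libraries.

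Uracil left by the enzymes can be removed by base excision repair. The 14 tested genes of uracil excision and short-patch repair had a median difference of -0.029. Of these, 3 (21.4%) were lower without overlap, against 10.6% of all tested genes. The endonuclease APEX1 averaged 92.1 ± 0.457 FPKM in ADAMTS1 libraries and 89.0 ± 4.75 FPKM in vector libraries, and the flap nuclease FEN1 averaged 80.4 ± 2.19 FPKM in ADAMTS1 libraries and 80.9 ± 0.600 FPKM in vector libraries. The 10 tested genes of translesion synthesis and single-stranded DNA binding had a median of -0.015. Of them, 2 (20%) were lower without overlap, against the same 10.6%. RPA1, which coats single-stranded DNA, averaged 53.8 ± 0.757 FPKM in ADAMTS1 libraries and 54.6 ± 0.770 FPKM in vector libraries, and its partner RPA2 averaged 30.1 ± 0.787 FPKM in ADAMTS1 libraries and 30.1 ± 2.24 FPKM in vector libraries.

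APOBEC3B is known to be induced by NF-kB and repressed in resting cells by complexes that hold E2F proteins. The 13 tested NF-kB genes had a median difference of -0.0092, with 1 lower without overlap (7.69%, against 10.6% of all tested genes). The inhibitor NFKBIA averaged 46.1 ± 0.646 FPKM in ADAMTS1 libraries and 46.5 ± 3.08 FPKM in vector libraries, and the subunit RELA averaged 24.8 ± 0.925 FPKM in ADAMTS1 libraries and 24.4 ± 1.38 FPKM in vector libraries. The 15 tested cell cycle repressors and activators had a median of -0.040, and 12 of their differences were negative, against 53.5% over all tested genes. MYBL2, the B-Myb factor, averaged 112 ± 3.32 FPKM in ADAMTS1 libraries and 121 ± 2.69 FPKM in vector libraries, lower without overlap (log2 difference -0.10, limma adjusted p 0.272). TFDP1, the E2F partner, averaged 70.9 ± 1.50 FPKM in ADAMTS1 libraries and 71.2 ± 0.437 FPKM in vector libraries.

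Interferon induces several members in blood cells. The 11 tested interferon signalling genes had a median of -0.023, with 1 higher and 1 lower without overlap. Together these were 18.2%, against 18.8% of all tested genes in either direction. The kinase JAK1 averaged 16.9 ± 0.179 FPKM in ADAMTS1 libraries and 15.9 ± 0.246 FPKM in vector libraries, higher without overlap (log2 difference 0.08, limma adjusted p 0.342), and IRF3, a factor that induces interferon, averaged 22.3 ± 1.62 FPKM in ADAMTS1 libraries and 22.5 ± 1.41 FPKM in vector libraries. The lower one, named after its values were seen, was the kinase JAK2 (1.04 ± 0.0753 FPKM in ADAMTS1 libraries and 1.196 ± 0.0813 FPKM in vector libraries, limma adjusted p 0.668). The 7 tested genes for other restriction factors had a median of -0.015, with 1 lower without overlap (14.3%, against 10.6% of all tested genes). SERINC3, which HIV Nef counters, averaged 50.4 ± 1.55 FPKM in ADAMTS1 libraries and 49.5 ± 1.12 FPKM in vector libraries, and IFITM3, which limits entry of viruses, averaged 39.0 ± 2.55 FPKM in ADAMTS1 libraries and 39.7 ± 2.20 FPKM in vector libraries.

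APOBEC3 proteins gather in cytoplasmic RNA granules. The 8 tested genes for granule partners had a median difference of -0.0038. Of these, 3 (37.5%) were higher without overlap, against 970 of all 11897 tested genes. YBX1, an RNA-binding protein, averaged 255 ± 1.55 FPKM in ADAMTS1 libraries and 250.4 ± 1.94 FPKM in vector libraries, and the poly(A)-binding protein PABPC1 averaged 159 ± 2.30 FPKM in ADAMTS1 libraries and 152 ± 4.12 FPKM in vector libraries (limma adjusted p 0.651 and 0.419).

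The ligase that Vif takes over was the list with a median above 0, at 0.074 over its 7 tested genes. Of the 7, 5 (71.4%) were higher without overlap. Among all 11897 tested genes 970 were higher without overlap, and 18.8% did not overlap in either direction. None was called by limma (lowest adjusted p 0.244), and 2 had an unadjusted p under 0.05. The adaptor ELOB averaged 59.2 ± 0.932 FPKM in ADAMTS1 libraries and 60.6 ± 3.14 FPKM in vector libraries, and CBFB, which Vif recruits, averaged 31.6 ± 1.10 FPKM in ADAMTS1 libraries and 31.1 ± 0.607 FPKM in vector libraries. The 5 that did not overlap, singled out after their values were seen, were UBE2F, RNF7, CUL5, ELOC and ARIH2, with log2 differences of 0.21, 0.13, 0.08, 0.07 and 0.04. UBE2F, which loads the activating NEDD8 tag onto the scaffold CUL5, averaged 2.72 FPKM in ADAMTS1 libraries and 2.21 FPKM in vector libraries.

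**Figure D4:**
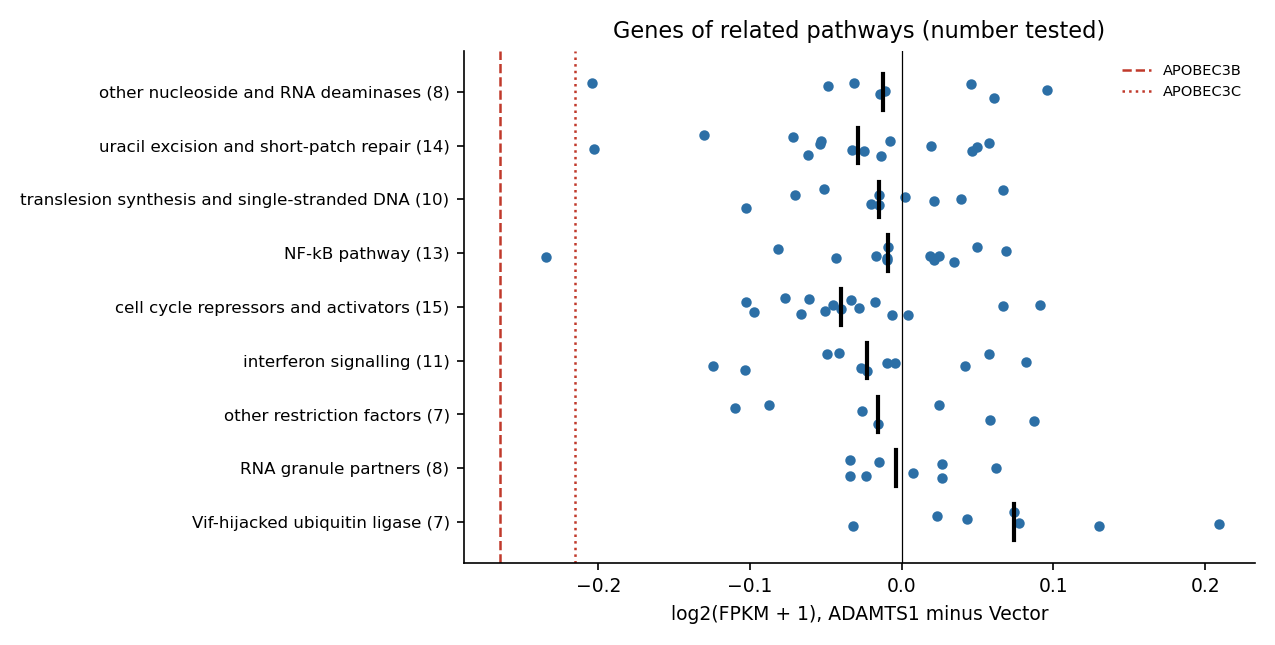
Difference in log2(FPKM + 1), ADAMTS1 minus vector (horizontal axis), of the tested genes of each list; points are genes, black bars the list medians, and red lines mark APOBEC3B at -0.26 and APOBEC3C at -0.22. The medians lie between -0.040 and 0.074. Every list gene lies to the right of APOBEC3B, while IKBKG, named after its values were seen, lies to the left of APOBEC3C at -0.23.

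On the chromosome, the 10 genes on each side of the cluster were listed, and 15 of these 20 were tested. Limma called 0 of the 15 (lowest adjusted p 0.155), and 4 had an unadjusted p under 0.05. Their differences ran from -0.24 to 0.10 with a median of -0.069, 13 of the 15 were negative, and 3 were lower and 1 higher without overlap. Over all tested genes 53.5% were negative, 18.8% did not overlap and 12.2% had an unadjusted p under 0.05. All 15 were smaller in size than the difference of APOBEC3B, but that of PDGFB (-0.24) was larger than that of APOBEC3C (-0.22). The family was selected on this contrast, so both comparisons are descriptions only.

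The nearest gene after the cluster was CBX7, a Polycomb subunit 16.1 kb away, with 1.24, 0.998 and 0.924 FPKM in ADAMTS1 libraries, against 1.45, 1.18 and 1.44 FPKM in vector libraries (log2 difference -0.20, limma adjusted p 0.474). Next came PDGFB, a platelet-derived growth factor chain, with 2.42, 2.20 and 2.73 FPKM in ADAMTS1 libraries, against 2.96, 3.32 and 2.94 FPKM in vector libraries (log2 difference -0.24, limma adjusted p 0.311). CBX7 overlapped between groups and PDGFB did not. RPL3, a ribosomal protein gene, averaged 244 ± 4.26 FPKM in ADAMTS1 libraries and 248 ± 4.19 FPKM in vector libraries.

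On the other side, CBX6, another Polycomb subunit 80.5 kb before the cluster, averaged 31.6 ± 1.48 FPKM in ADAMTS1 libraries and 32.8 ± 0.793 FPKM in vector libraries. NPTXR, a neuronal pentraxin receptor, averaged 2.11 ± 0.263 FPKM in ADAMTS1 libraries and 2.33 ± 0.201 FPKM in vector libraries. DNAL4, a dynein light chain, averaged 3.55 ± 0.280 FPKM in ADAMTS1 libraries and 3.77 ± 0.143 FPKM in vector libraries, and all 3 of these genes overlapped. SUN2, a nuclear envelope protein singled out after its values were seen, averaged 18.5 ± 0.648 FPKM in ADAMTS1 libraries and 21.5 ± 0.659 FPKM in vector libraries, without overlap (log2 difference -0.20, limma adjusted p 0.155).

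**Figure D5:**
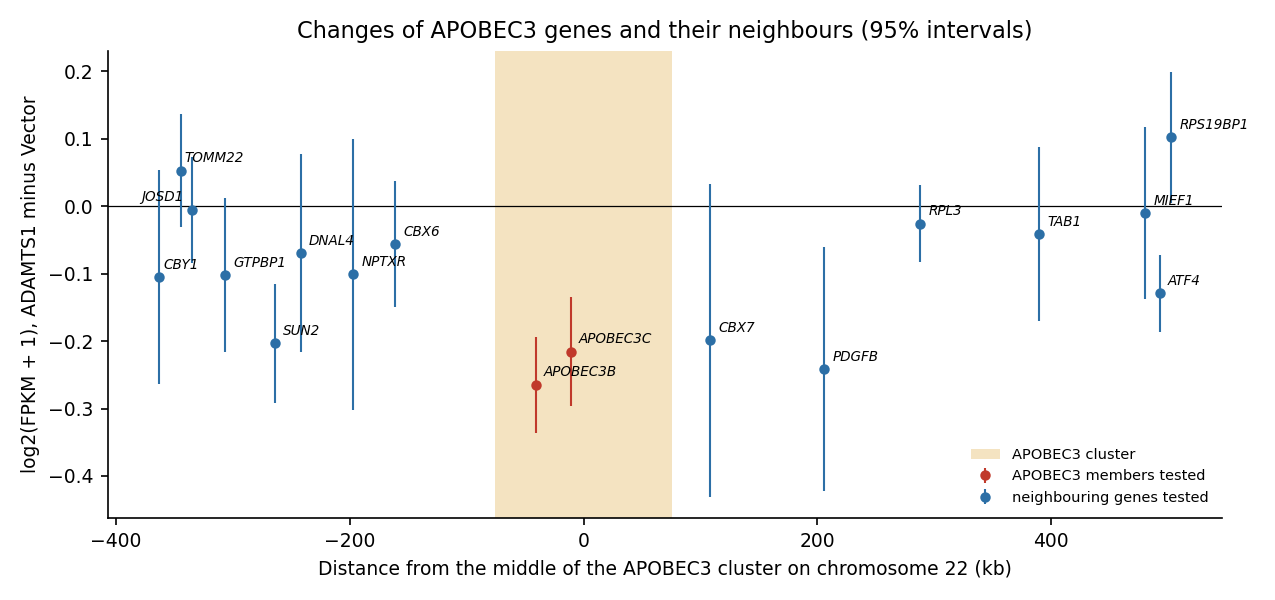
Difference in log2(FPKM + 1), ADAMTS1 minus vector (vertical axis), with 95% intervals, against distance from the middle of the APOBEC3 cluster (horizontal axis, kb). APOBEC3B at -0.26 and APOBEC3C at -0.22 are in red, and the 15 tested neighbours, in blue, lie between -0.24 and 0.10.

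Likeness to APOBEC3C, the member with the highest mean FPKM, was measured as Pearson's r of log2(FPKM + 1) over the 6 libraries. These share the 2 groups, so any gene that separates them scores high. APOBEC3B had an r of 0.971 and ranked 29 of 11131 genes, of which 238 (2.14%) had an r of at least 0.9. After removal of the group means its r was 0.446. The 5 most alike were HLA-B, an antigen-presenting protein (0.996), CCND1, the cyclin D1 gene (0.994), PSME1, a proteasome activator subunit (0.993), ATF4, a stress-response transcription factor (0.993), and TGFBR3, a TGF-beta coreceptor (0.991). Without the group means their r was 0.945, 0.920, 0.911, 0.912 and 0.907. These 5 were picked for the highest r over the same 6 libraries, which favours a high r here too. Their values are therefore no separate evidence of likeness and cannot be set against the 0.446 of APOBEC3B.

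HLA-B averaged 55.0 ± 2.40 FPKM in ADAMTS1 libraries and 65.5 ± 0.621 FPKM in vector libraries, a log2 difference of -0.25 (limma adjusted p 0.0922). CCND1 averaged 129.8 ± 0.498 FPKM in ADAMTS1 libraries and 132 ± 0.383 FPKM in vector libraries, a difference of only -0.027. ATF4, which lies 416 kb after the cluster, averaged 122 ± 2.47 FPKM in ADAMTS1 libraries and 134 ± 1.55 FPKM in vector libraries. It was already counted above among the 3 tested neighbours that were lower without overlap. All 5 were lower without overlap, and limma called none of them.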

How the data were processed

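RNA of MDA-MB-231 cells had been sequenced in 6 libraries, 3 with ADAMTS1 and 3 with the vector. The values are FPKM per gene that the authors deposited, already divided by transcript length and scaled to the library total. Per the submitters' processing notes, the tools were FastQC, HISAT2 and StringTie and the build was hg38; versions, annotation, strand and read length were not given in the sources used here. FPKM is relative to the rest of the library, is not a count, and gives no absolute depth.

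The table had 32119 entries; 284 that repeated a symbol were dropped in favour of the entry with the highest mean. FPKM sums were 259289 to 263001 per library, with 23395 to 24888 genes above 0. Genes with a mean of at least 1 FPKM (11897) were fitted with limma 3.58.1 in R 4.3.3 (lmFit, eBayes with trend) on log2(FPKM + 1), which understates changes of low genes, and p-values were Benjamini-Hochberg adjusted and called below 0.05 (two-sided). Residual degrees of freedom were 4, prior ones 3.19, with a median standard error of 0.0581. Groups followed the labels; the members and lists were chosen with earlier results of these data known, so no p-value was adjusted over a list alone and no score over members was tested. Named genes were ADAMTS1, the members, per list the 2 most abundant members where none was called, the 3 nearest neighbours on each side and the 5 genes most like APOBEC3C; others are marked where named, and 1 list is not reported here.

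Whole-number steps and relative depth were computed with Python 3.11.15, NumPy 2.4.6 and SciPy 1.17.1; both procedures were tested on simulated data. Sequences were those of GENCODE 29 transcripts, with GRCh38 coordinates from its annotation, using the principal transcript of each gene. Shared stretches were sought in all protein-coding transcripts of the other members, and identity was counted over aligned bases. Plots were drawn with Matplotlib 3.10.9. Alternatives were other pseudocounts, filters and scalings, no trend, a replicate block, summed entries and each library left out.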

Additional observations from a re-analysis of the deposited data

How the results depend on the processing

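The log2 difference of APOBEC3B stayed between -0.28 and -0.25 and that of APOBEC3C between -0.24 and -0.19 over 14 alternatives each, with limma adjusted p of 0.0241 to 0.230 and 0.0553 to 0.282. Only the filter of a mean of 5 FPKM moved a member past the threshold, 1 in place of 0: APOBEC3B, at an unchanged -0.26 (adjusted p = 0.0241); the filter tests fewer genes. Over all genes, the 8 calls became 31 with that filter, 2 without trend, 1 with no filter and 1 with the replicate block, and the cause was not tested. Without each library in turn there were 1 to 5: 2, 1 and 5 without ADAMTS1 replicate 1, 2 and 3, and 1, 2 and 2 without vector replicate 1, 2 and 3. Pathway lists and neighbours had 0 calls in all 13 alternatives run on them.

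The numbers do not pair the libraries: same-numbered deviations correlated at -0.0022, 0.018 and -0.093, and 1 of 6 libraries correlated best with its own number. With the replicate block the limma adjusted p was 0.230 for APOBEC3B and 0.241 for APOBEC3C. The summed level differed by -6.25 to -5.50 FPKM over 8 alternatives, and 4 of 6 neighbouring pairs in the order of levels passed at a pseudocount of 1 and, in an alternative chosen after seeing the data, of 0.1. The medians of 5 of the 9 lists took both signs over the alternatives. Each stayed within 1 SD of its reported value, where the SD is the median within-group SD of single genes of that list. For a median over several genes that is a loose limit.

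Depth limits APOBEC3H, with at most 4 steps a library, and APOBEC3A, listed above 0 in 1 library, and shared sequence limits the split among members. APOBEC3G, with a mean of 0.204 FPKM, was fitted only without the filter.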
